A study of Mus musculus with 12 samples.

Results

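In mouse embryos of embryonic day 8, EYFP-positive cells were set against EYFP-negative cells in wild-type and in ER71 mutant embryos. The measurement described here is how far that sort difference depended on the genotype. For each gene it is the mutant difference (positive minus negative cells) minus the wild-type difference, and it uses all 12 of the 12 arrays of the study. The 4 groups of 3 arrays each were wild-type EYFP-positive, wild-type EYFP-negative, ER71 mutant EYFP-positive and ER71 mutant EYFP-negative cells. All groups came from a mixed C57BL/6 and FVB line named ER71 EYFP, so the wild-type embryos carried the EYFP reporter too. Trypsin freed the cells, a cell sorter separated them by EYFP, and trizol-extracted RNA was amplified in 2 rounds. The labels do not give the sequence that drives EYFP, the part of the gene altered in the mutant allele, how many embryos each array holds, or whether arrays of a group come from separate litters. The p-values therefore measure the spread between these arrays, which may in part be technical. Values are log2 expression values of Affymetrix-type probe sets, and a difference of 1 on that scale is a 2-fold difference. In these cell populations, fewer cells of a type and less RNA per cell cannot be told apart.

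ER71, listed in the files as Etv2, is an ETS-family transcription factor that mesoderm cells switch on briefly before they become endothelium or blood. Mouse embryos that lack it form neither vessels nor blood cells. Endothelial cells are recognised by receptors for vascular growth factors and by the proteins of their junctions, and the first blood of the embryo consists of erythroid cells that make embryonic globins. Neighbouring mesoderm, which includes the lateral plate, gives rise to the heart muscle, the mesothelium and the allantois.

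Promoter sequences were read for the genes tested, because a composite of a forkhead and an ETS site is known from endothelial enhancers and promoters. A promoter was taken as the 300 bases from 250 before to 50 after a RefSeq start site (GRCm38.p6), and 14452 of the tested genes had one. The string AACAGGAAG, searched on both strands, was in a promoter of 9 of the 219 genes whose genotype dependence was below 0 and had a promoter entry (4.11%). It was in none of the 129 such genes above 0, and in 1.27% of all 14452. The ETS string CCGGAAG stood in a promoter of 3.65% of the genes below 0, of 8.53% of those above 0 and of 14.98% of all. For the GATA string AGATAAG these shares were 5.48%, 3.88% and 2.84%. A match in any promoter entry of a gene counted, and 2661 of the 14452 genes had several entries. These 3 strings are not parts of one another, and a match is a description of the sequence, not a binding site. The promoters below belong to endothelial genes with a genotype dependence past the threshold below 0, chosen after their values were seen. Calcrl, Emcn and Egfl7 were taken from the 9 genes that hold the composite string, so their matches follow from the choice. The others of these 9 were Ackr1, Arhgef7, Card10, Kcne3, Klhl6 and Ushbp1. Ctla2b was taken as a leading gene of the contrast. The part before the start site is printed 5′ to 3′ on the strand of the gene, with the composite string or its reverse complement CTTCCTGTT in capitals. Calcrl, part of the adrenomedullin receptor, holds it at bases 182 to 190. Emcn, a sialomucin of the endothelial surface, holds it at bases 77 to 85. Egfl7, a secreted protein of endothelial cells, holds it at bases 159 to 167 of the first of its 3 promoter entries. Ctla2b is a protease inhibitor-like gene and had the lowest genotype dependence among genes past the threshold, and its promoter holds none of the 3 strings.
Calcrl, chr2:84425267-84425516, minus strand: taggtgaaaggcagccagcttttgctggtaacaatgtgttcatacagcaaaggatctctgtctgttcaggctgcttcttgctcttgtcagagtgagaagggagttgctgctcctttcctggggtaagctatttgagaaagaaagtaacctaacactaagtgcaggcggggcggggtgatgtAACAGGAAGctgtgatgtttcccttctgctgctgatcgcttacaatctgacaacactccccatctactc
Emcn, chr3:137340828-137341077, plus strand: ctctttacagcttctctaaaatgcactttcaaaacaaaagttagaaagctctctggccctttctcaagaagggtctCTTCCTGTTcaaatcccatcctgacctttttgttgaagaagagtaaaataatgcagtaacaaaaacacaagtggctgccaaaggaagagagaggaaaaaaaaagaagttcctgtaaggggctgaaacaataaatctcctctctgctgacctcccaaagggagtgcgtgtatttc
Egfl7, chr2:26580833-26581082, plus strand: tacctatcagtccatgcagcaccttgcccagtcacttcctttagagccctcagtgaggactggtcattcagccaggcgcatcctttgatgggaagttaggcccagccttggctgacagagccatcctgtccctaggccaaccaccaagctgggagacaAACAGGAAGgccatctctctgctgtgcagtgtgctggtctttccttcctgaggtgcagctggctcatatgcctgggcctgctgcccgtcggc
Ctla2b, chr13:60897448-60897697, minus strand: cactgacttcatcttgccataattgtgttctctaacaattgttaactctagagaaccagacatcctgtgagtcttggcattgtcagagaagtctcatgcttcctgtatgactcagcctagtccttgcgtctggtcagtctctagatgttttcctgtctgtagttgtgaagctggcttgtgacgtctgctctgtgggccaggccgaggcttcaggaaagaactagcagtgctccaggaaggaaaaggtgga

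Some arrays stood apart from others of their group. Array medians lay between 6.98 and 7.06. The wild-type arrays numbered 1 of both sorts had Eif2s3y at 10.81 and 11.23, against 4.11 to 4.53 on the other 10 arrays, and the lowest Xist values, 10.33 and 8.19. The first mutant positive array had 11.98 for Afp, a yolk sac endoderm product, against 5.02 and 4.04 on the other two. The second mutant negative array had 11.55 for the embryonic globin Hbb-y, against 5.01 and 4.71. The mean difference between the 3′ and the 5′ probe sets of beta-actin, a sign of RNA and amplification quality, was 1.53 in mutant positive cells and between 2.21 and 2.40 in the other 3 groups. For Gapdh it was 1.78 in mutant positive and 2.00 in mutant negative cells, and 2.60 and 2.36 in wild-type positive and negative cells. Mutant positive arrays (1.56 to 2.14) and mutant negative arrays (1.49 to 2.82) overlapped in the Gapdh difference. The part of these differences in the results was not tested.

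Etv2 itself carried the sort difference in wild-type embryos and not in the mutant. Its values were 10.72, 10.70 and 11.36 in positive against 7.58, 7.50 and 7.85 in negative cells of wild-type embryos. In the mutant they were 7.40, 7.26 and 7.28 in positive and 7.49, 7.43 and 7.24 in negative cells. All 6 mutant arrays lay below all 6 wild-type arrays, but the nearest negative arrays stood at 7.493 and 7.496. Between negative cells of the 2 genotypes the difference was -0.26 (limma, adjusted p = 0.937). The genotype dependence was -3.36 ± 0.24 (SE, n = 3 arrays per group; limma, adjusted p = 1.33e-05). Whether the probe set lies in the altered part of the gene is not given in the sources used here.

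The sort difference depended on the genotype in 469 of 18193 genes (2.58%) by limma at an adjusted p under 0.05. It was below 0 in 292 genes (1.61%), which were less enriched in mutant positive cells than in wild-type ones, and above 0 in 177 (0.973%). In all 469, the 9 differences between single positive and negative arrays of one genotype lay wholly above the 9 of the other, as they did in 6.66% of all genes (mutant above in 3.01%, below in 3.65%). The median sort difference of the 292 genes was 1.67 in wild-type embryos and -0.06 in the mutant, and that of the 177 was -0.37 and 0.89. With arrays of the same number paired within each genotype, 797 genes passed, 378 above 0 and 419 below 0, of which 447 were among the 469. Without the second wild-type negative array 299 passed, and the number above 0 fell to 82. The number above 0 was also at 114 and 87 without the first or the third wild-type negative array, 117 without the first mutant positive array, and 109 and 103 without the second or the third mutant negative array. Leaving out both wild-type arrays numbered 1 left 337 genes, and leaving out both mutant arrays numbered 1 left 292.

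The genes behind the count differed in which genotype held the sort difference. Over all genes, the sort difference passed its own test for 1499 genes in wild-type embryos (8.24%), 843 higher (4.63%) and 656 lower (3.61%) in positive cells. In mutant embryos it passed for 975 genes (5.36%), 558 higher (3.07%) and 417 lower (2.29%). In 242 of the 469, positive cells were higher than negative cells past the threshold in wild-type embryos alone, with medians of 1.73 in wild-type and -0.03 in mutant embryos. In 106 they were higher in the mutant alone, with medians of -0.21 and 1.36. In 54 they were lower in wild-type embryos alone, with medians of -1.0 and 0.16, and in 14 lower in the mutant alone, with medians of 0.22 and -1.25. Both sort differences passed with the same direction in 21 genes and with opposite directions in 19, and neither passed in 13. Most of these counts depended on single arrays. With 1 array left out, 178 to 274 genes were higher in wild-type embryos alone and 50 to 104 in the mutant alone, the latter at 50 to 69 without any 1 wild-type negative array, the third wild-type positive or the second or the third mutant negative array. The number lower in wild-type embryos alone was 21 to 65, and at 21 to 35 without any 1 wild-type negative, the first mutant positive or the third mutant negative array. The number lower in the mutant alone was 5 to 18, at 5 without the second mutant positive array and at 8 or 9 without the first or the third wild-type negative or the second or the third mutant negative array. Same-direction genes fell to 13 without the first or the third mutant negative array, and opposite ones to 12 without the third wild-type negative array. The 13 genes with neither sort difference past the threshold became 22 without the first wild-type positive and 29 without the third mutant positive array, and 6 or 7 without the second or the third wild-type negative, the first mutant positive or the third mutant negative array. Without both mutant arrays numbered 1 there were 47 higher in the mutant alone, 28 lower in wild-type embryos alone and 8 of the same direction. Without both wild-type arrays numbered 1 there were 70, 35 and 15. With arrays paired, 196 genes were higher in the mutant alone, 128 lower in wild-type embryos alone, 38 lower in the mutant alone, 56 of the same and 44 of opposite direction.

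Most of the genotype dependence lay in the positive cells. Positive cells of the mutant differed from wild-type positive cells in 1450 genes (7.97%), 769 higher (4.23%) and 681 lower (3.74%), and 457 of the 469 genes were among them. Negative cells differed between genotypes in 0 genes (0%) by limma, with 949 of 18193 at an unadjusted p under 0.05 and a smallest adjusted p of 0.326. The difference between genotypes was larger in positive than in negative cells in 460 of the 469. These comparisons share arrays with the genotype dependence, so the counts describe it and do not add to it. Of the 843 genes enriched in positive cells of wild-type embryos, 274 (32.5%) had a genotype dependence below 0. Of the 558 genes higher in mutant positive cells, 113 (20.3%) had one above 0.

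**Figure D1:**
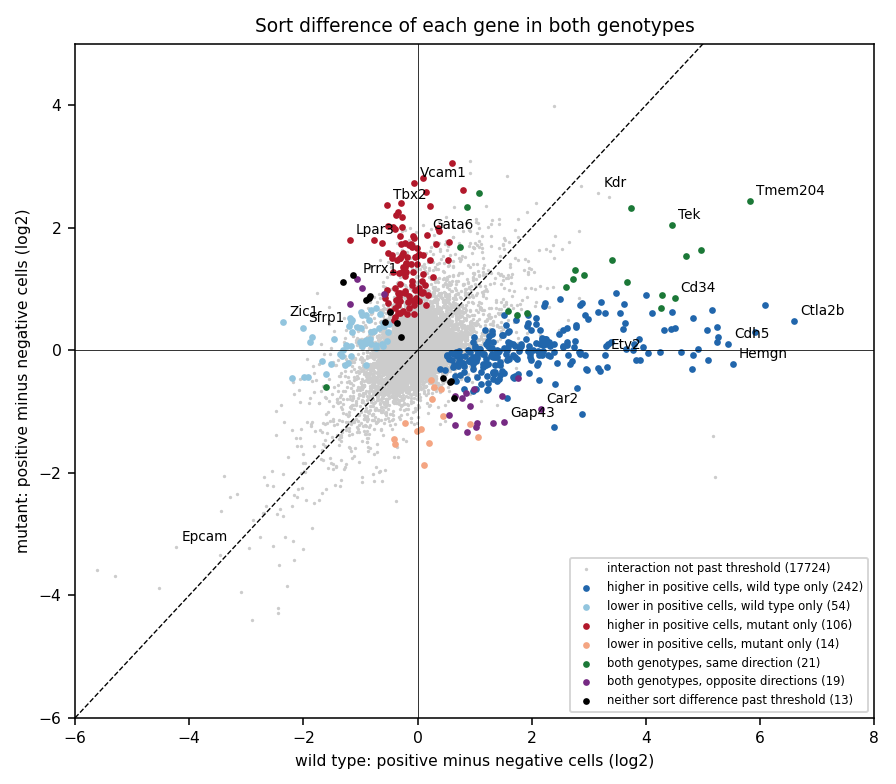
Each point is 1 of 18193 genes. The horizontal axis is the log2 difference between EYFP-positive and EYFP-negative cells in wild-type embryos, the vertical axis the same difference in mutant embryos, and the dashed line marks equal differences. Coloured points are the 469 genes past the threshold, by which sort difference passed. The 242 blue genes had a median of -0.03 in the mutant, and the 106 dark red genes a median of -0.21 in wild-type embryos. Single genes of both kinds lay away from 0 there, such as the dark red Lpar3 at -1.19 in wild-type embryos.

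Endothelial junction, surface and matrix genes lost most of their enrichment in mutant positive cells. Of 22 measured members, 16 were past the threshold below 0 and none above it (background 1.61% and 0.973%). Their median sort difference was 2.92 in wild-type and 0.34 in mutant embryos, and the median genotype dependence was -2.49, against -0.02 for all genes. With 1 array left out, 15 to 18 members passed. The list was chosen with earlier results of these data known. It counts Cdh5 and Ctla2b, leading genes of this contrast, and Ctla2a, so the count is a description only. Cdh5 encodes VE-cadherin, the adhesion protein of endothelial junctions. Its values were 10.35, 10.04 and 10.29 in wild-type positive cells against 4.78, 4.71 and 4.88 in negative cells. In the mutant, positive cells had 5.09, 4.86 and 5.0 and negative cells 4.93, 4.81 and 4.93, so only the wild-type positive arrays were high. Its genotype dependence was -5.34 ± 0.15 (adjusted p = 1.34e-08). On a dimmer probe set of Cdh5 it was -0.34, not past the threshold (limma over all probe sets, adjusted p = 0.618).

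Ctla2b went from 11.73, 11.42 and 11.92 in wild-type positive cells to 5.28, 5.32 and 4.96 in mutant positive cells, a genotype dependence of -6.11 ± 0.20 (adjusted p = 3.88e-08). Its negative cells lay at 5.0 to 5.17 in wild-type and at 4.54 to 4.81 in mutant embryos. The neighbouring family member Ctla2a, whose sequence is close enough that probes may be shared, had -5.60 ± 0.26. Cldn5, the tight junction claudin of endothelium, had -4.87 ± 0.19, Icam2, an adhesion molecule of the endothelial surface, -4.90 ± 0.22, and Mmrn2, an endothelial matrix protein, -5.04 ± 0.22. The sort differences left in the mutant were 0.39, 0.01 and 0.22. Emcn, whose promoter is printed above, was at 7.01, 7.58 and 7.86 in wild-type positive cells and at or below 5.14 on the other 9 arrays. Pecam1, the platelet-endothelial adhesion molecule, was not past the threshold (-0.69 ± 0.21, adjusted p = 0.143), and its sort difference was 0.74 in wild-type and 0.05 in mutant embryos.

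Endothelial receptors and signalling genes showed the same pattern with more exceptions. Of 25 measured, 15 were past the threshold below 0 and none above it, with 12 to 14 when 1 array was left out. Their median sort difference was 2.18 in wild-type and 0.38 in mutant embryos. Tal1, a transcription factor described below with the blood regulators, is a member of both lists and is counted in each. Flt4, the receptor for VEGF-C, was at 10.64, 10.65 and 10.76 in wild-type positive cells and at 7.10, 7.0 and 6.77 in mutant positive cells. Its negative arrays lay between 6.72 and 6.96 in both genotypes, and its genotype dependence was -3.69 ± 0.15 (adjusted p = 1.72e-07). A dimmer probe set of Flt4 had -0.60 (limma over all probe sets, adjusted p = 0.0436). Stab1, a scavenger receptor, had -3.78 ± 0.22. Calcrl, printed above, was at 12.23, 11.67 and 11.97 in wild-type positive and at 7.61, 7.61 and 7.23 in mutant positive cells, with -4.30 ± 0.28.

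Kdr, the main VEGF receptor of vascular progenitors, stood apart from these receptors. It was chosen for mention after its values were seen. It was at 12.57, 12.13 and 12.28 in wild-type positive cells and still at 11.48, 11.72 and 12.17 in mutant positive cells, against 9.08 to 9.24 in the negative cells of both genotypes. Positive and negative arrays did not overlap in either genotype. Its genotype dependence of -0.59 was not past the threshold (95% interval -1.10 to -0.08, adjusted p = 0.294). Nrp1, a co-receptor of VEGF and semaphorins, and Aplnr, the apelin receptor, also kept a sort difference past the threshold in both genotypes. Nrp1 had 1.12 in wild-type and 1.67 in mutant embryos (interval of the genotype dependence -0.02 to 1.11), and Aplnr 1.55 and 1.18 (interval -0.92 to 0.19). The laminin chain gene Lama4 had 2.86 and 2.68, with an interval of -1.17 to 0.81.

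Transcription factors of the endothelium were past the threshold below 0 for 11 of 20 measured genes and above 0 for 1, Nr2f2. With 1 array left out, 9 to 12 passed. Sox7 was at 10.34, 9.85 and 10.44 in wild-type positive cells and at 5.25, 4.88 and 5.25 in mutant positive cells, with -5.12 ± 0.24 (adjusted p = 4.12e-07). Sox18, its close relative, had -4.09 ± 0.23, and Hhex, a homeobox factor of endothelium, blood and foregut, had -3.98 ± 0.25. Their mutant positive arrays overlapped with their mutant negative arrays, at 6.59 to 6.72 against 6.61 to 6.74 for Sox18. The ETS factor Fli1 had -4.10 ± 0.32. Its values fell from 11.49, 11.57 and 11.85 in wild-type positive cells to 7.53, 7.17 and 7.20 in mutant positive cells. Nr2f2, a factor of venous endothelium that mesenchyme also expresses, had 1.08 ± 0.23 (adjusted p = 0.028). Etv2 is a member of this list and is counted in it.

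Blood genes comprised a regulator list with fewer calls and an erythroid list with more. Of 23 blood regulators and receptors, 4 were past the threshold below 0 and none above it, and 7 passed with arrays paired. Tal1, the factor that commits mesoderm to blood, was at 12.11, 11.82 and 12.61 in wild-type positive cells and at 7.52, 7.55 and 7.39 in mutant positive cells. Its negative arrays lay at 6.89 to 7.27 in wild-type and 6.75 to 6.88 in mutant embryos. The mutant positive arrays were thus above the mutant negative ones by 0.66, a difference not past the threshold, and the genotype dependence was -4.50 ± 0.25 (adjusted p = 1.68e-06). Its partners Lyl1 and Lmo2 had -3.25 ± 0.29 and -2.11 ± 0.35, and the erythroid factor Gata1 had -1.75 ± 0.30. The call of Lmo2 was lost without both wild-type arrays numbered 1. Runx1, the factor of definitive blood, gave different values on its 6 probe sets. The brightest, which stands for the gene here, was not past the threshold, with sort differences of 0.25 and -0.14, whereas a dimmer one had a genotype dependence of -2.46 ± 0.23 (limma over all probe sets, adjusted p = 0.000167).

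Of 18 primitive erythroid genes, 10 were past the threshold below 0 and none above it, and 10 or 11 passed with 1 array left out. Their median sort difference was 2.06 in wild-type and -0.06 in mutant embryos. Hemgn, a nuclear protein of erythroid progenitors, was at 10.30, 10.55 and 11.26 in wild-type positive cells, with all other arrays between 4.60 and 5.59. Its genotype dependence was -5.74 ± 0.40 (adjusted p = 1.13e-05). Klf1, the master regulator of erythroid genes, was at 9.95, 9.63 and 10.12 in wild-type positive cells and at 6.62, 6.21 and 6.27 in mutant positive cells, with -3.60 ± 0.20. The anion exchanger Slc4a1 had -5.10 ± 0.39, and the embryonic globin Hba-x -5.25 ± 0.78.

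The globin genes Hbb-y and Hbb-bh1 had lower values of the genotype dependence than any gene past the threshold, -7.28 ± 2.51 and -6.56 ± 1.76, and neither was past it on the brightest probe set (adjusted p = 0.213 and 0.0892). A dimmer probe set of each was past it, with -5.40 ± 0.67 for Hbb-y and -7.17 ± 1.04 for Hbb-bh1 (limma over all probe sets, adjusted p = 0.00138 and 0.00418). On the brightest probe sets their negative cells were uneven. Hbb-bh1 was at 10.05, 6.70 and 11.87 in wild-type negative cells and at 6.34, 10.51 and 6.10 in mutant negative cells. Positive cells were even within each genotype, at 14.74, 14.56 and 14.82 in wild-type embryos and at 6.37, 6.30 and 6.09 in the mutant. Summed over the 18 erythroid genes, the second mutant negative array stood at 138.9 against 127.1 and 125.4 on the other two, and the wild-type negative arrays at 137.1, 126.4 and 143.0.

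**Figure D2:**
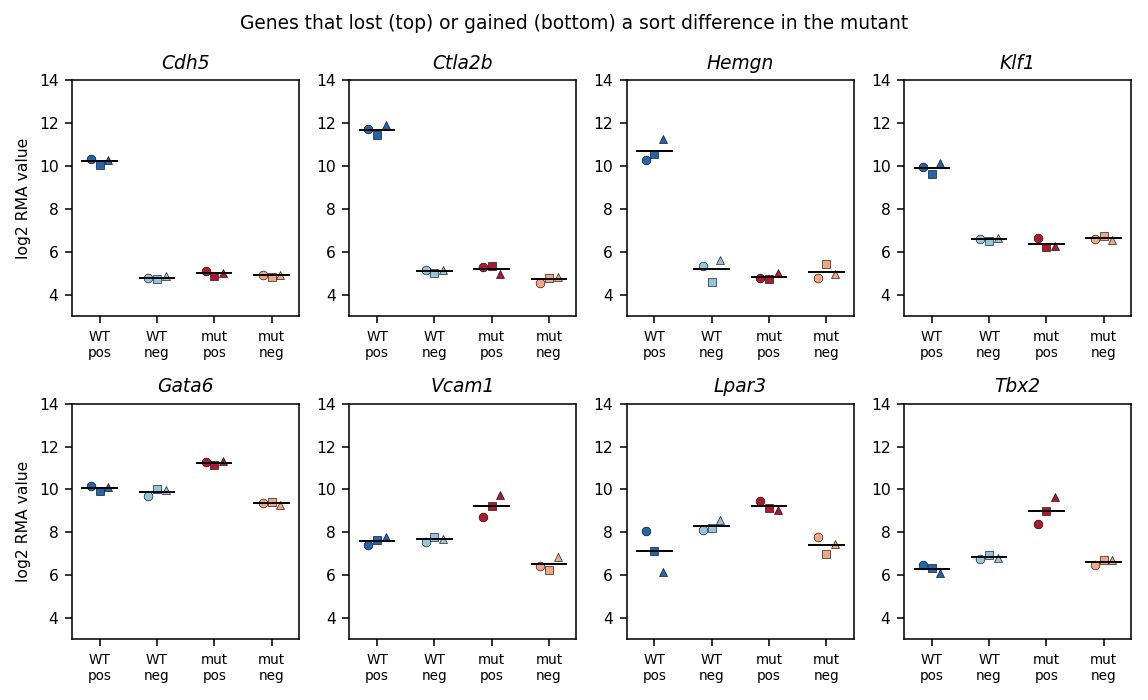
Log2 expression on each array for 4 genes that lost their sort difference in the mutant (top) and 4 that gained one (bottom). Circles, squares and triangles are arrays numbered 1, 2 and 3, and bars are group means; in the top row only wild-type positive arrays are high, and in the bottom row mutant positive arrays lie above the other 9.

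Genes of the lateral plate, mesothelium and allantois went the other way. Of 22 measured, 11 were past the threshold above 0 and none below it (background 0.973% and 1.61%). Their median sort difference was -0.07 in wild-type and 1.20 in mutant embryos. Without the second wild-type negative array 6 passed, and 6 passed without both mutant arrays numbered 1. Among the members counted is Vcam1, a leading gene of the contrast. Vcam1, an adhesion molecule of embryonic mesoderm and the allantois, was at 8.70, 9.25 and 9.72 in mutant positive cells and at 6.43, 6.23 and 6.82 in mutant negative cells. In wild-type embryos positive cells had 7.41, 7.65 and 7.76 and negative cells 7.55, 7.80 and 7.68, so the sorts overlapped. The genotype dependence was 2.79 ± 0.32 (adjusted p = 0.000627). On dimmer probe sets of Vcam1 it was 0.04 and 0.46, neither past the threshold (limma over all probe sets, adjusted p = 0.978 and 0.187). On the brightest probe set both mutant sorts moved away from the wild-type level. Positive cells went upward by 1.61 and negative cells downward by 1.18, but only the former difference passed its test. Tcf21, a factor of visceral mesoderm and epicardium, had 2.71 ± 0.47. Wnt2, a ligand of cardiac and lung mesoderm, was at 9.96, 9.27 and 9.64 in mutant positive cells and at 8.12 or below on the other 9 arrays, with 2.17 ± 0.38.

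Cardiac transcription factors were past the threshold above 0 for 9 of 21 measured genes and below 0 for none. Their medians were -0.11 in wild-type and 1.23 in mutant embryos. The count was 4 without the second and 5 without the third wild-type negative array, and 5 without both mutant arrays numbered 1. Among the members counted is Gata6, a leading gene of the contrast. Gata6, which acts in cardiac mesoderm and endoderm, was at 11.28, 11.15 and 11.32 in mutant positive cells against 9.39, 9.43 and 9.29 in mutant negative cells. In wild-type embryos its positive cells had 10.14, 9.94 and 10.09 and its negative cells 9.68, 10.03 and 9.99, and these overlapped. Its genotype dependence was 1.72 ± 0.16 (adjusted p = 0.0001). On dimmer probe sets of Gata6 it was 1.44 and 0.38, neither past the threshold (limma over all probe sets, adjusted p = 0.175 and 0.666). Tbx2, a repressor of the chamber programme, was at 8.39, 8.99 and 9.62 in mutant positive cells and between 6.09 and 6.94 elsewhere, with 2.91 ± 0.34 (adjusted p = 0.000659). Hand2, a factor of the heart tube and lateral plate, had 1.85 ± 0.22. Nkx2-5, the early cardiac homeobox factor, was not past the threshold (1.35 ± 0.34, adjusted p = 0.0677).

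Sarcomere and muscle genes had the largest upward shift of the median sort difference among the lists, from -0.09 in wild-type to 1.54 in mutant embryos, with a count that depended on single arrays. Of 30 measured, 11 were past the threshold above 0 and none below it. The number was 3 without the third wild-type negative array and 4 without the second wild-type negative or the second mutant negative array. It was 5 without the first wild-type negative, the first mutant positive or the second mutant positive array, and 6 without the third wild-type positive or the third mutant negative array. It stayed at 10 without the first wild-type positive or the first mutant negative array. The count rose to 14 without the second wild-type positive and to 15 without the third mutant positive array. Without both wild-type arrays numbered 1 it was 4, without both mutant arrays numbered 1 it was 3, and with arrays paired it was 18. Myl7, the atrial myosin light chain, was at 12.80, 12.93 and 12.66 in mutant positive cells and at 10.62, 9.84 and 10.73 in mutant negative cells. Wild-type positive cells had 10.49, 10.91 and 9.43 and wild-type negative cells 10.22, 11.02 and 10.45. Only the mutant positive arrays were high, and the genotype dependence was 2.69 ± 0.50 (adjusted p = 0.0151). That call was lost without both mutant arrays numbered 1. Tnni1, the slow troponin I of embryonic heart, had 2.59 ± 0.40 (adjusted p = 0.00416), and Mybpc3, a thick filament protein, 1.23 ± 0.21 (adjusted p = 0.00898).

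Other genes with large gains in mutant positive cells included Smarcd3, the heart-enriched subunit of a chromatin remodelling complex, with 2.56 ± 0.38, and Synpo2, an actin-binding protein of muscle, with 2.56 ± 0.37. Smarcd3 was at 10.56, 10.57 and 10.59 in mutant positive cells and at 9.34 or below on the other 9 arrays. Lpar3, a receptor for lysophosphatidic acid, had the highest genotype dependence among genes past the threshold, 2.99 ± 0.54 (adjusted p = 0.0133). It was at 9.46, 9.11 and 9.05 in mutant positive cells, 7.79, 7.0 and 7.43 in mutant negative cells and, in wild-type negative cells, 8.11, 8.21 and 8.57. Its wild-type positive cells were spread, at 8.08, 7.12 and 6.13, and mutant positive arrays alone lay above the highest of all others, 8.57. Its call was lost when values were floored at the 25th percentile of all values (adjusted p = 0.0588). All Lpar3 values lay above that floor, so only the fit shared with other genes and the adjustment changed. The beta-actin 3′ to 5′ difference, lowest on average in mutant positive cells, was 1.40 to 1.62 on their arrays and 1.54 to 3.14 on the other 9. That of Gapdh was 1.56 to 2.14 on mutant positive and 1.49 to 2.82 on mutant negative arrays. The part of either in the gains was not tested.

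In 19 genes the sort difference passed the threshold in both genotypes with opposite signs. In 15 of them positive cells were higher in wild-type and lower in mutant embryos. Car2, a carbonic anhydrase abundant in red cells, was at 12.51, 12.12 and 12.63 in wild-type positive against 9.94, 10.48 and 10.37 in wild-type negative cells. In the mutant it was at 9.60, 9.55 and 9.33 in positive against 10.76, 10.38 and 10.21 in negative cells. The sorts did not overlap in either genotype, and the differences were 2.16 and -0.96. Ppp1r16b, a phosphatase subunit of endothelial cells, had 1.02 and -1.25, Plxnc1, a semaphorin receptor, 1.32 and -1.19, and Enc1, an actin-binding protein of the nervous system, 1.04 and -1.19. Gap43, a growth cone protein, was at 10.69, 10.31 and 10.56 in wild-type positive and at 8.59, 7.89 and 7.45 in mutant positive cells. Its negative cells stood between 8.63 and 9.47, and its genotype dependence was -2.69 ± 0.39.

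The 4 genes of the reverse kind were Pdgfra, Prrx1, Prkg1 and Pth1r. Pdgfra, the PDGF receptor of paraxial and lateral mesenchyme, was at 10.58, 10.85 and 10.74 in wild-type positive cells against 11.70, 11.77 and 12.22 in wild-type negative cells. In the mutant it was at 12.53, 12.40 and 13.02 in positive against 12.00, 11.79 and 11.88 in negative cells. Positive cells were thus below all negative cells in one genotype and above them in the other, with -1.18, 0.76 and a genotype dependence of 1.93 ± 0.25 (adjusted p = 0.00128). Prrx1, a homeobox factor of limb and lateral plate mesenchyme, had -1.07 and 1.16. Its call was lost without the arrays numbered 1 of both genotypes.

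**Figure D3:**
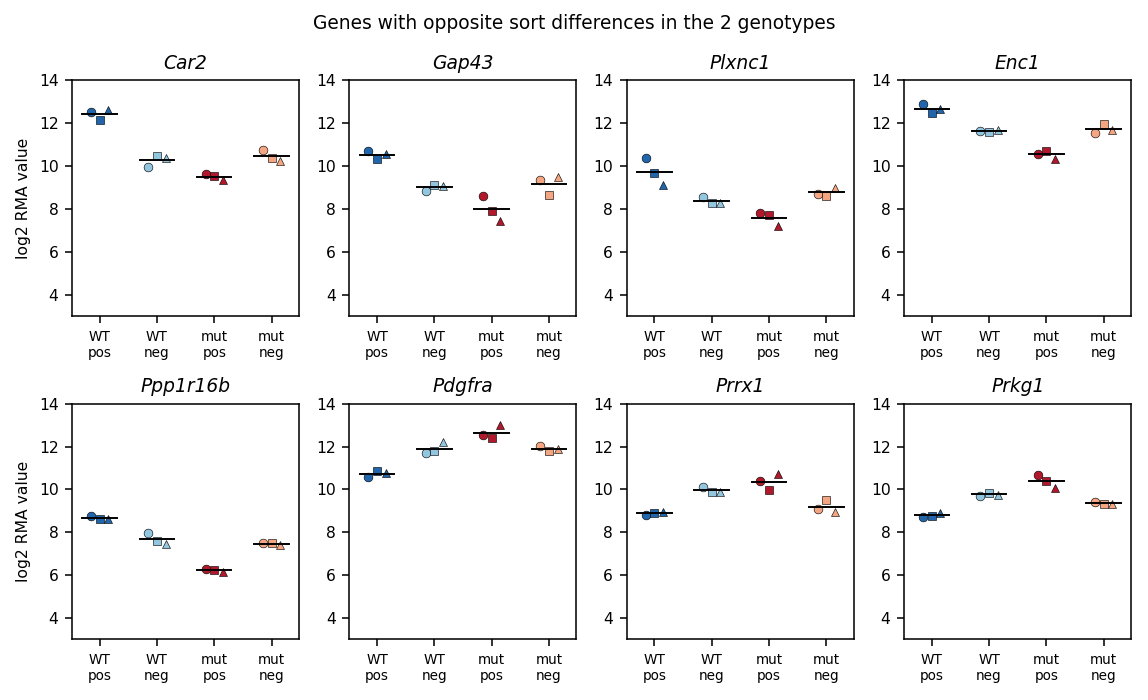
Log2 expression on each array for 8 of the 19 genes whose sort difference passed the threshold with opposite signs in the 2 genotypes. Circles, squares and triangles are arrays numbered 1, 2 and 3, and bars are group means; in the first 5 genes wild-type positive arrays are highest and mutant positive arrays lowest on average, and in Pdgfra, Prrx1 and Prkg1 the order is turned.

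In 54 genes positive cells were lower than negative cells in wild-type embryos alone. Sfrp1, a secreted Wnt inhibitor, was at 8.22, 8.99 and 8.83 in wild-type positive cells and at 10.40, 10.73 and 10.95 in wild-type negative cells. In the mutant the sorts overlapped, at 10.38, 10.85 and 11.07 in positive and 10.39, 9.99 and 10.83 in negative cells. Its genotype dependence was 2.38 ± 0.37 (adjusted p = 0.00481). The Wnt receptor Fzd7 followed the same pattern, with 9.59 to 10.24 in wild-type positive cells and 10.83 to 11.36 on all other arrays, and 1.34 ± 0.23. Its call was lost without both mutant arrays numbered 1. Apela, a ligand of the apelin receptor, had sort differences of -1.89 and 0.14, and Ndnf, a secreted neuron-derived factor, -1.18 and 0.53. Both calls were lost when values were floored at the 25th percentile (adjusted p = 0.0596 and 0.0502), although all values of both genes lay above that floor.

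The calls of 3 further genes of this kind turned on single arrays. Zic1, a zinc finger factor of neural tube and somites, had sort differences of -2.35 and 0.47 and an adjusted p of 0.0239, and 7 of the 12 fits without 1 array lost the call, with adjusted p up to 0.0709. Fst, the activin inhibitor follistatin, had -1.85 and 0.22, and 5 of 12 fits lost it, with adjusted p up to 0.0635. Epha7, an ephrin receptor, had -2.21 and -0.46, and 10 of 12 lost it, with adjusted p up to 0.126.

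In 14 genes positive cells were lower in the mutant alone. Nrarp, a target and inhibitor of Notch signalling, was at 9.14, 9.32 and 8.98 in mutant positive cells against 10.46, 9.87 and 10.36 in mutant negative cells. In wild-type embryos positive cells had 10.12, 10.25 and 10.72 and negative cells 9.99, 9.88 and 9.90, and its genotype dependence was -1.52 ± 0.26 (adjusted p = 0.00816). That call was lost without both mutant arrays numbered 1 (adjusted p over all settings up to 0.0881). Gabra4, a GABA receptor subunit, had -1.32 ± 0.21 (adjusted p = 0.00498), with mutant positive arrays at 5.71 to 6.35 and all others at 6.91 to 7.45. The calls of Gpm6a, Tal2, Tlcd3b and Mapk12 were lost in 8, 8, 8 and 9 of the 12 fits without 1 array.

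Part of the enrichment remained in mutant positive cells for 17 genes, which were higher in positive cells of both genotypes and less so in the mutant. Those with the largest loss, named here, are known from endothelium or inflammation. Cd34, a sialomucin of endothelium and blood progenitors, was at 10.22, 10.40 and 10.58 in wild-type positive and at 7.35, 6.43 and 6.89 in mutant positive cells, against 5.59 to 6.21 in negative cells. Its sort differences were 4.51 and 0.85. Plvap, the diaphragm protein of endothelial fenestrae, had 4.70 and 1.54, and Tnfaip2, a tumour necrosis factor-induced gene, 4.96 and 1.64. Plxnd1, a semaphorin receptor of vessels, had 4.27 and 0.90, and Rhoj, an endothelial small GTPase, 4.27 and 0.69. Tek, the angiopoietin receptor, was at 10.15, 9.80 and 9.03 in mutant positive cells, between its wild-type positive values of 11.65, 11.33 and 11.27 and its negative values of 6.66 to 7.80. Tmem204, a small membrane protein of endothelium, had 5.83 and 2.44, and its call (adjusted p = 0.0176) was lost without the third mutant negative array (adjusted p = 0.0508).

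The sort difference was larger in the mutant for Dlk1, Pitx1 and Tmem158, which with Sorl1, lower in positive cells of both genotypes and less so in the mutant, make up the 4 genes of this class above 0. Dlk1, an imprinted Notch-like membrane protein, had 0.86 in wild-type and 2.34 in mutant embryos, and Pitx1, a homeobox factor of hindlimb mesoderm, had 1.08 and 2.56. For Pitx1 mutant positive arrays stood at 9.40, 9.80 and 10.44, above wild-type positive arrays at 8.61, 8.39 and 8.64. In all, 387 genes passed in both genotypes with the same sign, and 21 of them were past the threshold for genotype dependence.

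Of 23 neural ectoderm genes, 15 were lower in positive cells of wild-type embryos and 14 in those of the mutant, and none was higher. Their medians were -1.62 and -1.45. For the genotype dependence, 2 were past the threshold above 0, Zic1 and Irx3, and 0 without both mutant arrays numbered 1 or without the third wild-type negative or the third mutant negative array. The Irx3 call (0.76 ± 0.15, adjusted p = 0.0189) was lost in 4 of 12 fits without 1 array. Of 19 epithelial and definitive endoderm genes, 11 were lower in positive cells of each genotype, and 1, Krt8, was higher in those of the mutant. Their medians were -1.15 and -1.22. Krt8, a keratin of simple epithelia, was also the 1 member past the threshold for genotype dependence (1.06 ± 0.25, adjusted p = 0.0476, lost in 10 of 12 fits without 1 array), and 3 members passed with arrays paired. Pax6, a neural transcription factor, had -2.65 and -2.55, with a 95% interval of the genotype dependence from -0.59 to 0.80, while 1 dimmer of its 5 probe sets had -1.15 ± 0.25 (limma over all probe sets, adjusted p = 0.0437). Epcam, an epithelial adhesion molecule, had -4.23 and -3.21, with an interval from -0.28 to 2.33. The first mutant positive array held more of these products. Its summed level over the epithelial genes was 151.9 against 140.3 and 140.7, and over the 16 yolk sac endoderm genes 131.8 against 100.7 and 98.7. Of the yolk sac, trophoblast and paraxial mesoderm lists, with 16, 9 and 17 measured genes, 0 members passed in limma, with 0, 1 and 4 at an unadjusted p under 0.05, a level that 12.3% of all genes reached. In the paraxial list 1 passed with arrays paired, without the second mutant negative array or without the third wild-type negative array.

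Signalling lists showed fewer calls than the endothelial lists. Past the threshold were 25% of the Wnt, 23.5% of the Notch and 10% of the BMP and TGF-beta list. Of the FGF list 0% passed, and of all genes 2.58%. Of 20 Wnt pathway genes, 5 were past the threshold above 0, namely Wnt2, Sfrp1, Fzd7, Fzd1 and Axin2, and none below it. Of 17 Notch genes, 4 were past it below 0: Notch1, Hey1, Mfng and Nrarp. That count was 1 without the first or second mutant negative or the second wild-type negative array, and 2 without the first wild-type negative or the third mutant positive array. It was 2 without both wild-type arrays numbered 1 and 0 without both mutant arrays numbered 1. Notch1 was at 12.12, 11.54 and 11.42 in wild-type positive cells and at 9.99, 10.14 and 9.74 in mutant positive cells, with -1.63 ± 0.32 (adjusted p = 0.019). The Notch1 call was lost in 4 of 12 fits without 1 array, with adjusted p up to 0.0617. In the BMP and TGF-beta list of 20, Bmp4, a ligand of posterior and lateral mesoderm, was past it above 0 (1.41 ± 0.29) and the receptor Tgfbr2 below 0 (-2.39 ± 0.26). The Bmp4 call was lost in 8 of 12 fits without 1 array, and the list's count of 2 was 1 in 7 of the 12 and without both mutant arrays numbered 1. Of 19 FGF pathway genes 0 passed in limma, with 4 at an unadjusted p under 0.05. The count was 2 without the first wild-type positive array, 1 without the third mutant positive array and 1 with arrays paired. A dimmer probe set of the ligand gene Fgf3 was past the threshold, with -1.23 ± 0.20 (limma over all probe sets, adjusted p = 0.00976), and the brightest, with -0.95, was not (adjusted p = 0.124).

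Among 13 lysophospholipid receptors and enzymes, Lpar3, a leading gene of the contrast, was past the threshold above 0 and S1pr1, Spns2 and Lpar6 below it. Spns2, the exporter of sphingosine-1-phosphate, was at 9.86, 9.53 and 10.47 in wild-type positive cells and between 6.84 and 7.15 on the other 9 arrays, with -3.02 ± 0.26. S1pr1, its receptor on endothelium, had sort differences of 2.32 and 0.06. Lpar1, Lpar2 and Lpar4 were not past the threshold, at 0.62, 0.99 and -0.17. Of 18 interstitial matrix genes, 3 were past it above 0, Tnc, Vcan and Col1a2, and 1 below it, Hapln1. That count of 4 was 1 or 2 in 8 of the 12 fits without 1 array, 2 without both mutant arrays numbered 1 and 7 with arrays paired. Tnc, an adhesion-modulating matrix protein, had mutant positive arrays at 8.62, 8.49 and 8.34 and 1.78 ± 0.32.

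Lists that track handling, growth or other blood cells had 0 or 1 member past the threshold. A single call was 5.56% of the stress list and 6.67% of the macrophage list, against 2.58% of all genes. Of 18 immediate early and dissociation stress genes, 1 was past the threshold, Atf3, a stress-induced factor, with 2.19 in wild-type and 0.08 in mutant embryos (-2.11 ± 0.34, adjusted p = 0.00525). Of 15 macrophage, mast cell and megakaryocyte markers, 1 was, the Fc receptor gene Fcgr3 (-2.06 ± 0.40, adjusted p = 0.0175), and this call was lost without the first wild-type negative array (adjusted p = 0.0506). The list's count was 4 without the second wild-type positive array and 2 with arrays paired. The cell cycle list of 18, the p53 list of 12, the hypoxia and glycolysis list of 17 and the ribosomal protein list of 8 had 0 members past it in limma, with 1, 1, 4 and 0 at an unadjusted p under 0.05 (12.3% of all genes).

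**Figure D4:**
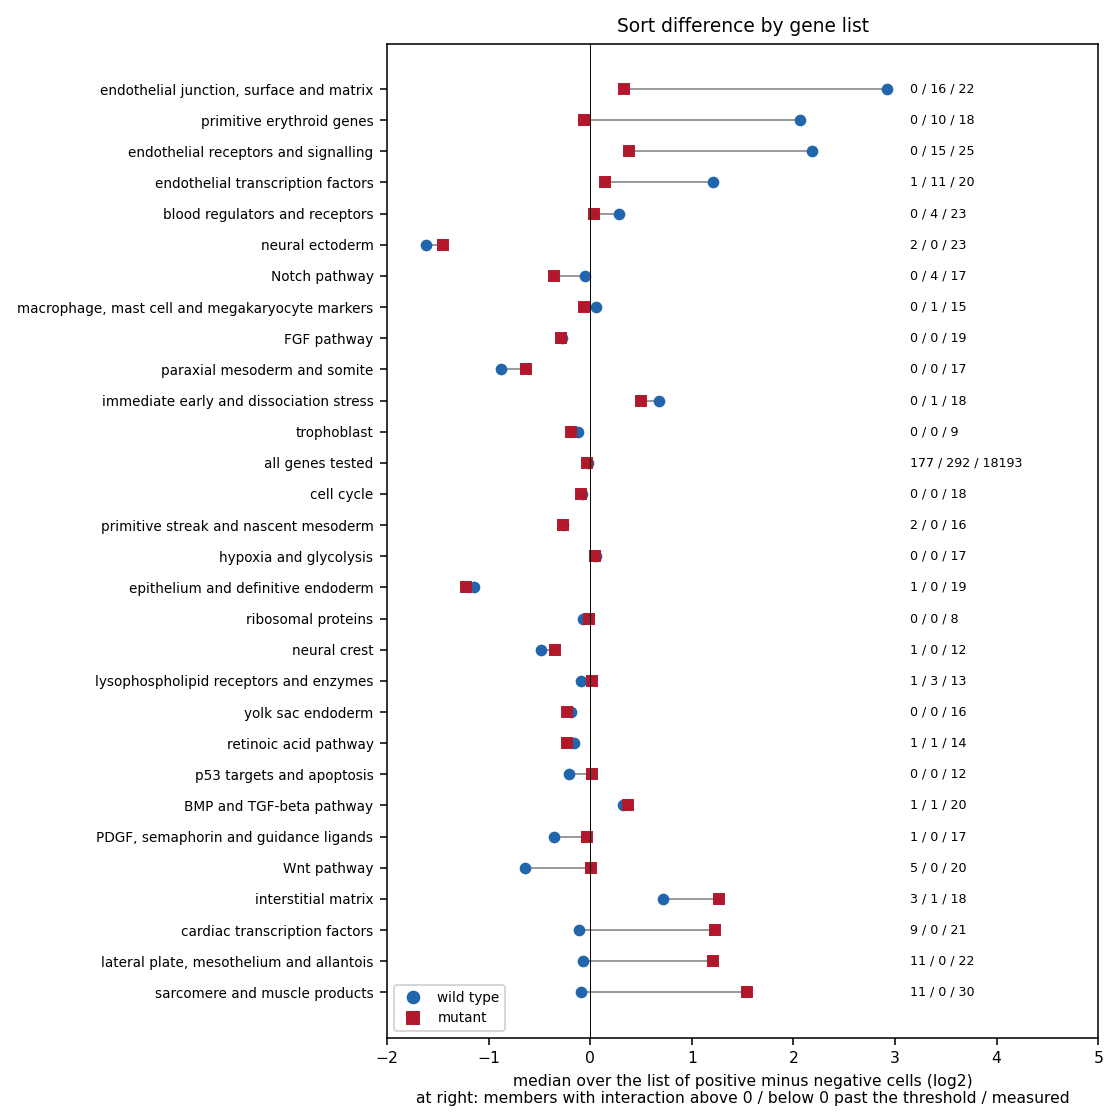
Median sort difference over each gene list in wild-type embryos (blue circles) and mutant embryos (red squares), in log2 units, with lists ordered by the median genotype dependence. Numbers at the right give members past the threshold above 0, below 0 and measured; the 3 endothelial lists and the erythroid list lie far to the right in wild-type embryos and near 0 in the mutant, and the cardiac, lateral plate and sarcomere lists the reverse.

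Different probe sets of the same gene were compared for the named genes past the threshold. Of these 76 genes, 39 had more than 1 probe set. Of their 77 dimmer probe sets, 24 were past the threshold in the same direction and 0 in the other (all probe sets in limma). Of the 39 genes, 20 had no dimmer probe set past it, among them Cdh5, Gata6, Vcam1, Hand2, Tcf21, Tgfbr2, Fzd7, Ndnf, Gabra4, Synpo2 and Ppp1r16b. Of 52 genes checked that were not past the threshold, 29 had more than 1 probe set. A dimmer one was past it in 7: Fgf3, Hbb-bh1, Hbb-y, Lhx1, Pax6, Runx1 and Snai2.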

How the data were processed

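Expression was measured on 12 arrays, 3 in each of the 4 groups that cross ER71 genotype with the EYFP sort. Per the submitters' processing notes, the authors used RMA to make the deposited log2 expression values. The sources used here do not give its version or settings. Of 45101 probe sets, 64 were array controls, 34945 had 1 gene symbol, 932 had several and the platform table named no gene for 9224 (controls included). The probe set with the highest mean stood for a gene, which gave 18193 genes, with no filter on low values. A model with 4 group means (8 residual degrees of freedom) was fitted in limma 3.58.1 (R 4.3.3). The contrast was (mutant positive minus mutant negative) minus (wild-type positive minus wild-type negative), tested two-sided, with Benjamini-Hochberg adjustment over all genes at 0.05. The fit was tested on simulated data. Errors are moderated standard errors, and 3 arrays per group limit the precision of every value.

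The fit had no replicate term. Positive and negative arrays that share a number and a genotype had correlated deviations from their group means. The correlations were 0.190, 0.102 and 0.202 in wild-type and 0.554, 0.403 and 0.413 in mutant embryos, and at most 0.0434 between numbers. Deviations within a group cancel out, so the low values between numbers follow in part from the others and are no separate support. Numbers were read as pairing arrays within a genotype, and the main fit does not use this. The reading comes from the data, not from the labels.

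Genes were named by a rule: Etv2, Cdh5, Ctla2b, Gata6, Vcam1 and Lpar3, the 10 highest and the 10 lowest values past the threshold, up to 3 genes of each list by p-value, and up to 6 of each class by size; the rule also took up to 6 genes that differed in negative cells, of which there were 0. Other genes named were chosen after their values or promoter strings were seen, among them those with printed promoters. The contrast and all gene lists were chosen with earlier results of these data known. Alternatives covered the probe set rule, dim values, normalization, variance model, replicate block, thresholds and left-out arrays. Promoters came from RefSeq.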

Additional observations from a re-analysis of the deposited data

Results flagged for a closer look

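The sort difference itself differed between wild-type and mutant embryos by the interaction test in 469 genes, which are the subject of the report. Among the named genes, 7 had a sort difference past the threshold in both genotypes with opposite signs, and the difference between genotypes was tested for each. The genotype dependence was -3.12 for Car2, -2.23 for Enc1, -2.69 for Gap43, -2.51 for Plxnc1 and -2.27 for Ppp1r16b, which were higher in positive cells of wild-type embryos and lower in those of the mutant. It was 1.93 for Pdgfra and 2.23 for Prrx1, with the directions turned.

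Probe sets outside the gene table were tested in the same way. Of 10092 without a single gene symbol, 43 were past the same threshold (0.426%), 8 above 0 and 35 below 0, a smaller share than 1.27% of all probe sets (573), and 0 of the 64 array control probe sets were past it in limma, with 12 at an unadjusted p under 0.05. No gene name is given for them here.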

How the results depend on the processing

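No named gene past the threshold turned its direction under any setting run. Of the named genes not past it 1 did, Rps3, at 0.19 as reported and -0.22 when each gene was the average over its probe sets. Of those past it, 44 of 76 stayed past it in all 26 settings run for each; 32 did not in 1 or more. Of 38 named genes not past it, 16 passed in 1 or more. The total, with genes above 0 and below 0, was 469, 177 and 292 as reported. It moved by over 1.5 times, in total or on 1 side, in these cases. Values floored at the 25th percentile of all values gave 288 genes, 78 above and 210 below 0. The replicate block that pairs arrays within a genotype gave 797 (378 above, 419 below), and the replicate block as a random effect 842 (400 above, 442 below; correlation 0.272). With the pairing, 1 named gene lost its call, Rdh10, and 7 gained one: Dll1, Fgfr3, Itga2b, Krt18, Lhx1, Snai2 and Sox9. Both blocks also raised the wild-type sort count from 1499 to 2160 and 2220 and the mutant one from 975 to 1486 and 1514. Without both mutant arrays numbered 1 there were 292 (86 above, 206 below), and without the arrays numbered 1 of both genotypes, an alternative chosen after seeing the data, 231 (74 above, 157 below). Of the named genes that kept their call in every fit without 1 array, 10 lost it without arrays numbered 1 of both sorts: Fzd7, Myl7 and Nrarp without those of the mutant, Lmo2 without those of wild-type embryos, and Apela, Hba-x, Mybpc3, Prrx1, S1pr1 and Tnc without those of both genotypes. An adjusted p under 0.01 gave 214 (41 above, 173 below). Leaving out 1 array at a time gave 299 to 486 genes, 82 to 196 above 0 and 217 to 319 below 0. The cause of these shifts was not tested, apart from fewer arrays or a stricter threshold by construction. The other settings gave 337 to 599 genes. Signal near the low end limits the precision of some losses: 39 of the 292 genes below 0 had wild-type negative means under the 25th percentile, and 33 had both mutant means there.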
